A study of Capsella orientalis and Capsella grandiflora with 23 samples.

Results

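Long genes, here the gene intervals whose end lies more than 5000 bp beyond their start, made up 1658 of the 23185 genes that held at least 1 single-nucleotide polymorphism (SNP) in these endosperm data, or 7.15%. They were chosen by interval length alone, with no measured value, and were set against the 18201 genes of 1000 to 5000 bp. The endosperm is the nourishing tissue of the seed, and it receives 2 genomes from the mother and 1 from the father, so a gene without parental bias is taken to have 66.7% maternal reads, called the dosage below. In an imprinted gene the allele of 1 parent is read more than the allele of the other, whichever accession that parent belongs to. A maternally expressed gene keeps a high maternal share in both directions of a reciprocal cross, and a paternally expressed gene keeps a low one. A gene in which 1 accession has the stronger allele behaves otherwise, since its maternal share is high in 1 direction and low in the other. Imprinting in plants is best known from this tissue, where DNA methylation and Polycomb marks that differ between the parental genomes accompany it.

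The outcrosser Capsella grandiflora (Cg) and the selfer Capsella orientalis (Co) were each crossed within the species. Cg endosperm came from 4 accessions in 2 reciprocal pairs, A with B and C with D. Co endosperm came from 1 reciprocal pair, A with B, with 8 samples over both directions and 2 of the tables below. Mothers were emasculated and pollinated by hand, and endosperm was dissected 6 days after pollination from 300 to 500 seeds a sample, so each library pools many seeds. The files give 4 tables, called Cg pair 1, Cg pair 2, Co pair 1 and Co pair 2, each with the maternal and paternal reads at every SNP in cross direction 1 and direction 2. Their columns name no sample, so the accession behind a direction, and the tie of the 8 directions to the 14 endosperm samples, repeat runs included, are not known. Genomic and bisulfite samples from leaves were not analysed here. P-values measure the spread between directions, which may be technical in part.

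Allele counts per direction ran between 208132 and 9508567, with both directions of Cg pair 1 at 9378895 or more and the other 6 directions at 1099158 or less. Reads covering more than 1 SNP enter the counts at every one of them, so allele counts are not independent molecules, and intervals and floors below cover counting error only. The files pair no interval with a gene name. The labelled tissue could therefore not be checked against endosperm or seed coat markers, and no function is given for any gene. In pooled tissue a stronger allele and a different mix of cells cannot be told apart.

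Long genes had a median length of 6156 bp. Of the 1658, 754 had at most 6000 bp, whereas 55 passed 12000 bp and the longest spanned 30788 bp. By strand, 808 lay on the plus and 850 on the minus strand, and 1650 of them lay on the 8 scaffolds that hold most genes. Among those scaffolds the long genes were 8.21% of listed genes on scaffold 6 and 5.43% on scaffold 5. Positions are as in the deposited tables, on a genome build that the labels and files do not name. Just inside the limit, the gene of 5001 bp at 7733017 to 7738018 on scaffold 4 had maternal shares of 37.4% and 64.4% in the directions of Cg pair 1, and the gene of 5002 bp at 1918562 to 1923564 on scaffold 8 had 75% and 79.1%. Just outside it, the genes of 4998 bp at 6315018 to 6320016 and of 4996 bp at 9280005 to 9285001, both on scaffold 4, had 57.0% and 75.9%, and 48.9% and 80.8%. The values just inside and just outside the limit thus overlap.

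Long genes were measurable more often. Of the long genes listed in a table, 1100 of 1501 in Cg pair 1, 712 of 1534 in Cg pair 2, 210 of 1030 in Co pair 1 and 384 of 934 in Co pair 2 had 20 or more exonic reads in both directions. As a share of listed genes this was 73.3%, 46.4%, 20.4% and 41.1% of long genes, against 60.8%, 25.1%, 13.7% and 28.3% of genes of 1000 to 5000 bp. Of the 1658 long genes, 1350 passed somewhere, and 635 passed in 1 table, 467 in 2, 155 in 3 and 93 in all 4. The remaining long genes had too few exonic reads and enter no result below.

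The exonic SNPs of long genes reached more exons. They fell in 2 or more exons in 72.9% of passing long genes of Cg pair 1 and 91.4% of Cg pair 2, against 51.9% and 69.1% of genes of 1000 to 5000 bp. In the Co pairs it was 61.4% and 50% of long genes, against 36.1% and 29.3%. Genes resting on 1 exonic SNP were 37.8% of long genes in Co pair 2, against 55.9% of the others. A smaller part of the SNPs of long genes was exonic, 49.6% in Cg pair 1 and 47.2% in Cg pair 2, against 54.5% and 57.6%. Of their exonic SNPs, 6.93% also lay inside the interval of another listed gene, where reads of the 2 genes cannot be separated.

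The typical long gene sat close to the dosage in 6 of the 8 directions. In Cg pair 1 the median maternal share of long genes was 66.5% in direction 1 and 67.0% in direction 2, against 66.7% and 66.8% for genes of 1000 to 5000 bp. The Cg pair 2 medians were 52.1% and 67.2% for long genes, against 54.8% and 67.9%. Those of Co pair 1 were 60.7% and 68.8%, against 65.1% and 69.3%, and those of Co pair 2 were 68.4% and 69.2%, against 68.7% and 69.0%. Both classes were low in direction 1 of Cg pair 2, and long genes also in direction 1 of Co pair 1, the directions that stand apart in the plot of shares by direction. Long genes were lower in 6 of 8 directions, by a mean of 1.03 percentage points (mean difference -1.03 ± 1.63, SD, n = 8). An exact two-sided sign-flip permutation test over the 8 directions gave p = 0.0625, or 0.123 after Benjamini-Hochberg adjustment over the 7 measures compared between the classes, where the smallest p possible is 0.0078. Without direction 1 of Co pair 1 the mean difference was -0.56. Directions of a pair share SNPs and accessions, and over the 4 table means the exact permutation test gave p = 0.25, in a design too small to reach 0.05 at all.

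**Figure D1:**
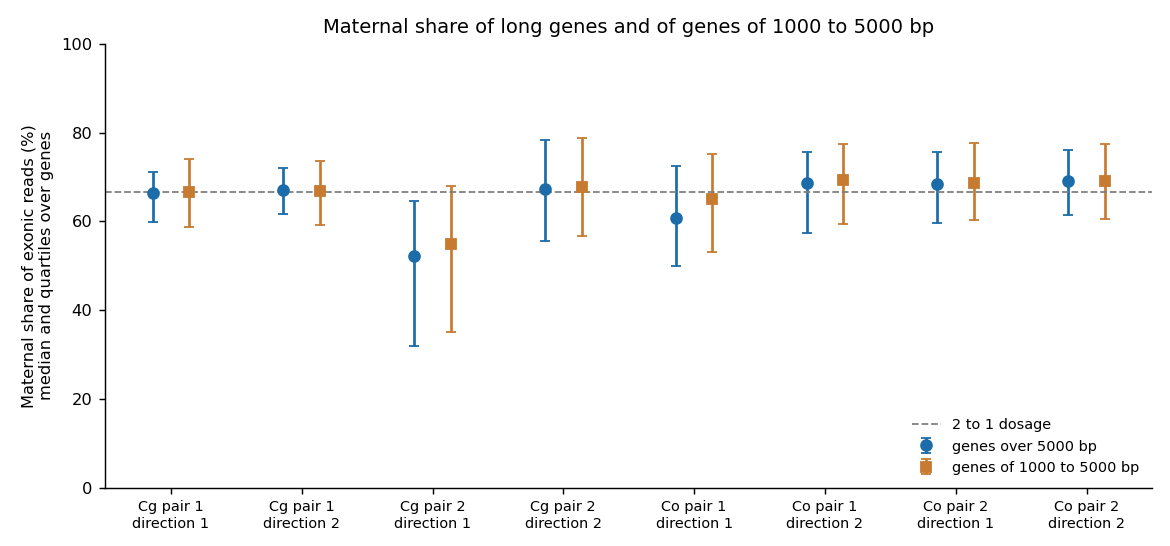
Maternal share of exonic reads (percent, vertical axis) in each of the 8 cross directions (horizontal axis), with the median as a point and the 25th to 75th percentile as a line, for long genes on the left and genes of 1000 to 5000 bp on the right of each direction. The dashed line marks the 66.7% dosage; direction 1 of Cg pair 2 lies lowest in both classes, at 52.1% for long genes and 54.8% for the others.

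In Cg pair 1, the deepest table, long genes scattered less around the dosage. Their interquartile range was 11.2 and 10.2 percentage points in the 2 directions, against 15.2 and 14.3 for genes of 1000 to 5000 bp. Median reads per gene there were 398 and 373 for long genes, against 290 and 284.5. Long genes were also lower in direction 1 of Cg pair 2 and in both directions of Co pair 2, and the mean difference over the 8 directions was -1.40 (SD 1.87), with an exact permutation p of 0.0938 and an adjusted p of 0.131. The summed maternal share, which follows the most-read genes, differed by -0.64 (SD 1.51, n = 8, exact permutation p = 0.383).

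Strong parental bias was sorted first by 2 fixed limits on each table. Genes at 85% or more maternal reads in both directions were 17 of 1100 long genes in Cg pair 1, where 3.05% of all passing genes met the limit, and 1 of 712 in Cg pair 2, where 0.707% did. In Co pair 1 they were 2 of 210 (1.95% of all genes) and in Co pair 2 they were 3 of 384 (2.48% of all genes). As shares of long genes these were 1.55%, 0.14%, 0.95% and 0.78%, against 3.0%, 0.70%, 2.09% and 2.82% of genes of 1000 to 5000 bp. The share of long genes was the lower one in each of the 4 tables. No test was run on these counts.

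Paternal bias showed no such order between the classes. Genes at 50% or more paternal reads in both directions were 34 long genes in Cg pair 1 (2.85% of all genes met this limit), 36 in Cg pair 2 (4.61% of all genes), 4 in Co pair 1 (2.03% of all genes) and 8 in Co pair 2 (1.45% of all genes). That is 3.09%, 5.06%, 1.90% and 2.08% of long genes, against 2.90%, 4.60%, 1.98% and 1.26% of genes of 1000 to 5000 bp. Both limits together picked few genes more than once, but 635 of the 1350 passing long genes passed in 1 table only. The counts by number of tables were made for long genes alone, so they show nothing particular to them. By number of tables, 55 long genes met the paternal limit in 1, 10 in 2, 1 in 3 and 1 in all 4, and 20 met the maternal limit in 1 table, 1 in 3, and none in 2 or in 4. Among the 527 Cg and 210 Co long genes that passed in both pairs, none was paternal by this limit in 1 pair and maternal in the other.

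A model of the counts then asked which long genes departed from the dosage when accession was taken into account. For each species edgeR's quasi-likelihood test was fitted to all genes with 20 or more exonic reads in all 4 directions. Its terms were cross direction, parent and accession. A gene was called at a Benjamini-Hochberg adjusted p up to 0.05 over all genes fitted. The deviation is the log2 ratio of maternal to paternal reads relative to the 2 to 1 dosage, negative where paternal reads are in excess. With 1 residual degree of freedom per gene, the test leans on the spread shared across genes.

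In Cg, 10 of 527 long genes were called, among 3698 genes of which 1.73% were called. All 10 were paternal, where 1.41% of all genes were called paternal, although TMM scaling gave 5 maternal and 11 paternal calls and a null at the median log ratio of all genes gave 7 and 13. All 10 lay below the dosage in each of the 4 directions, where 1.49% of all genes were called and kept to 1 side. No long gene was called maternal by edgeR, where 0.324% of all genes were. At an unadjusted edgeR p under 0.05 there were 8 long genes on the maternal and 21 on the paternal side, and DESeq2 called 4 on the maternal side and 14 on the paternal side. Among genes of 1000 to 5000 bp, edgeR called 48 of 3027, 11 maternal and 37 paternal. The median deviation of long genes was -0.21 and that of all genes -0.19 on the log2 scale, so a call on the paternal side is measured from a dosage slightly above the middle of the data. Calls in Cg changed with single directions. Leaving out either direction of pair 2 left no edgeR call among long genes (21 at an unadjusted p under 0.05 in each case). Leaving out either direction of pair 1 left 5. A pair left with 1 direction has no accession term in the fit, so its accession differences are not separated from parental bias there.

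The 2 long genes with the largest Cg deviations both lie on scaffold 7. At 11097355 to 11102864 (minus strand, 5509 bp), maternal reads were 61 of 1644 (3.71%, Wilson 95% interval 2.90 to 4.74) and 105 of 1212 (8.66%, 7.21 to 10.4) in the directions of Cg pair 1. Pair 2 gave 8 of 224 (3.57%, 1.82 to 6.89) and 55 of 453 (12.1%, 9.45 to 15.5). All 4 directions were therefore far below 66.7%, and the deviation was -4.94 ± 0.25 (SE, edgeR adjusted p = 0.0018). It was also the only long gene past the paternal limit in all 4 tables. In Co it had 1 of 25, 0 of 30, 0 of 71 and 6 of 102 maternal reads at a single exonic SNP, where a count of 0 in 30 allows a share of up to 10.0%, and its Co deviation was -7.26 ± 0.73 (edgeR adjusted p = 9.61e-07).

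The excess of paternal reads was seen at SNPs all along the interval. In direction 2 of Cg pair 2, 26 SNPs in 9 exons had 10 or more reads, and all 26 lay below the dosage, between 0% and 57.9% maternal with a median of 7.50%. Its 7 SNPs of Cg pair 1, in 4 exons, ran between 0.81% and 5.41% in direction 1 and between 2.16% and 16.7% in direction 2. On the 5′ side of the interval's midpoint the share was 3.08% and 7.11% in these directions, and on the 3′ side 3.90% and 8.99%.

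The other scaffold 7 gene, at 3283770 to 3290676 (minus strand, 6906 bp), had maternal shares of 6.95% of 820 reads (5.40 to 8.90) and 0.98% of 1022 reads (0.53 to 1.79) in Cg pair 1. Pair 2 gave 5.17% of 58 reads (1.77 to 14.1) and 20.0% of 45 reads (10.9 to 33.8). Its deviation was the largest in size of the called Cg genes, -5.42 ± 0.62 (SE, edgeR adjusted p = 0.0202). It was past the paternal limit in 3 tables. In Co it was low as well, with 3 of 14, 0 of 15, 4 of 21 and 3 of 40 maternal reads, but 2 of these directions fell under the 20-read minimum and the gene was not fitted there.

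Scaffold 1 carried 5 of the 10 called Cg genes, and 3 of them lie within 48200 bp, at 2805048 to 2813419 (8371 bp), 2816680 to 2823844 (7164 bp) and 2847047 to 2853248 (6201 bp), all on the plus strand. The ends of that stretch were set by these called genes, so its outer genes are long and called by construction. It holds 9 listed genes, of which 5 could be fitted and 3 are long, and the 3 long ones were its called genes. Scaffold 1 as a whole holds 294 of the 1658 long genes. Maternal shares of the gene at 2805048 were 3.45% of 29 reads, 11.4% of 35, 10.6% of 85 and 29.4% of 68, with a deviation of -3.70 ± 0.55 (edgeR adjusted p = 0.0350). For the gene at 2847047 they were 12.1% of 472 reads, 25.4% of 523, 27.0% of 37 and 31.8% of 110, with a deviation of -2.79 ± 0.41 (adjusted p = 0.0330). Both were low in every direction, though the gene at 2805048 rested on 1 exonic SNP in Cg pair 1. In Cg pair 1 the 6 SNPs of the gene at 2847047, in 3 exons, lay between 8.11% and 31.2% over both directions. In direction 2 of Cg pair 2 its 7 SNPs with 10 or more reads ran between 0% and 100%, with 6 below the dosage. The gene at 2816680 was less even, with 6.90% of 203 reads and 9.62% of 52 in direction 1 of the pairs and 54.9% of 237 and 48.9% of 94 in direction 2. Its deviation was -2.69 ± 0.40 (edgeR adjusted p = 0.0334). In direction 2 of Cg pair 1 its 2 SNPs lay at 53.8% and 57.1%. In direction 2 of Cg pair 2 its 5 SNPs with 10 or more reads ran between 0% and 100%, so the sum there averages SNPs that disagree.

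The 2 further called genes of scaffold 1 stand apart from this stretch and from each other. At 8940594 to 8950288 (minus strand), the longest of the called genes with 9694 bp, maternal shares were 3.88% of 799 reads, 29.9% of 676, 13.5% of 37 and 34.0% of 94 (deviation -3.46 ± 0.45, edgeR adjusted p = 0.0230). Its 6 SNPs with 10 or more reads in Cg pair 1 sat in 1 exon and were below the dosage in both directions. At 7246405 to 7252006 (minus strand, 5601 bp) the shares were 14.9% of 1259 reads, 40.7% of 1230, 36.2% of 207 and 33.3% of 192 (deviation -2.23 ± 0.28, adjusted p = 0.0230), and single SNPs of it ran up to 100% in direction 2 of Cg pair 1.

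Scaffold 4 held the remaining 3. The gene at 12929735 to 12936585 (minus strand, 6850 bp) had the most even summed shares of the 10 between directions. They were 18.0% of 172 reads, 16.3% of 104, 19.2% of 26 and 15.8% of 57 (deviation -3.25 ± 0.49, edgeR adjusted p = 0.0364). Its single SNPs were less even. Those with 10 or more reads in Cg pair 1 ran between 6.12% and 40.8% in direction 1 and between 0% and 45.5% in direction 2, all below the dosage. The gene s4:5687260-5692963(minus), of 5703 bp, had 33.6%, 35.0%, 45.5% and 35.2% (deviation -1.76 ± 0.25, adjusted p = 0.0303). The gene s4:8526546-8532043(plus), of 5497 bp, had 39.1%, 36.0%, 20.9% and 57.1% (deviation -1.74 ± 0.14, adjusted p = 0.0081). These 2 had the smallest deviations of the 10. Leaving out a single direction of pair 2 raised the adjusted p of all 10 past the threshold, while the sign of the deviation stayed negative in every such fit. For the gene at 11097355 on scaffold 7, with any 1 of the 4 directions left out, the deviation ranged between -5.26 and -4.65 and the adjusted p between 0.00083 and 0.728.

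**Figure D2:**
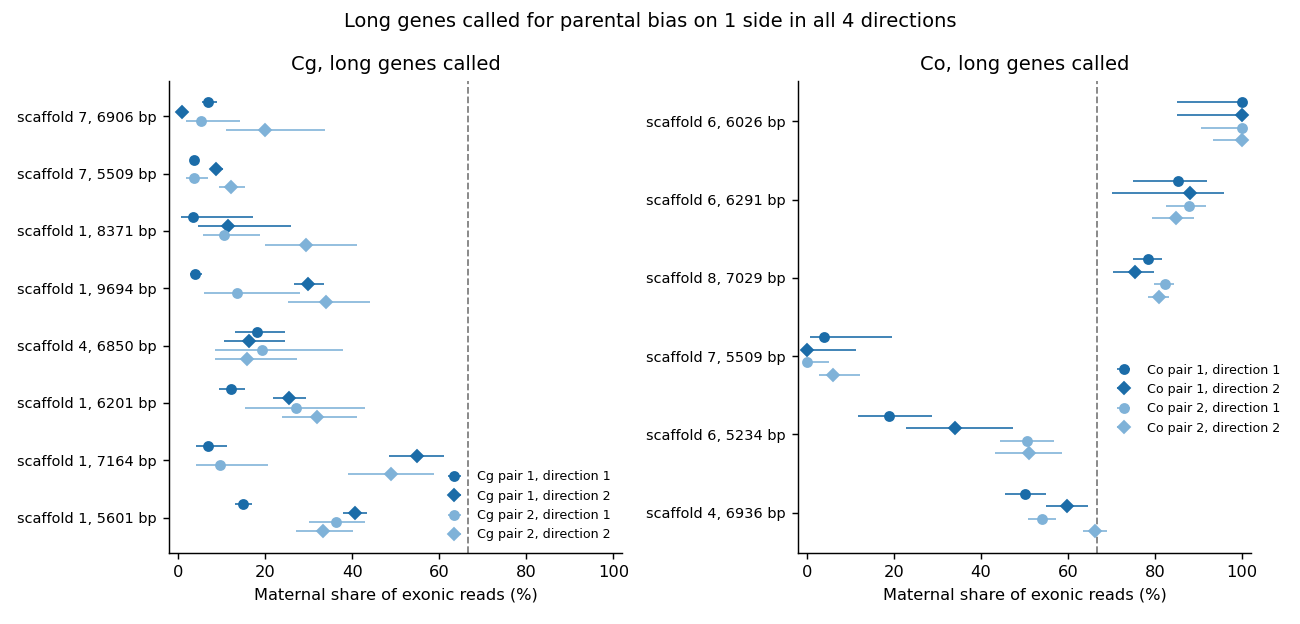
Maternal share of exonic reads (percent, horizontal axis) with Wilson 95% intervals in each of the 4 directions of a species, for the 8 called Cg long genes with the largest deviations (left panel) and the 6 called Co long genes that kept to 1 side (right panel); the dashed line is the 66.7% dosage. All points of the 8 Cg genes lie left of the line, and 3 of the 6 Co genes lie right of it.

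In Co, 9 of 210 long genes were called, among 1213 genes of which 7.58% were called. By side, 4 were maternal, where 3.63% of all genes were called maternal, and 5 paternal, where 3.96% were called paternal. Of the 9, 6 kept to 1 side of the dosage in all 4 directions, where 3.71% of all genes were called and did so. Among genes of 1000 to 5000 bp, 77 of 942 were called, 37 maternal and 40 paternal. The median deviation was 0.02 for long genes and 0.04 for all genes on the log2 scale. At an unadjusted edgeR p under 0.05 there were 7 long genes on the maternal and 12 on the paternal side, and DESeq2 called 3 in all. No edgeR call among long genes was left without either direction of Co pair 1 (13 and 8 at an unadjusted p under 0.05) or without direction 2 of Co pair 2 (6 at an unadjusted p under 0.05). Without direction 1 of Co pair 2 there were 3, of which 1 was among the 9. DESeq2's adjusted p passed the threshold for 3 of the 9, the genes at 7140391 on scaffold 6, 12065572 on scaffold 1 and 11097355 on scaffold 7.

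The largest maternal deviation belonged to the gene at 7140391 to 7146417 on scaffold 6 (plus strand, 6026 bp). All of its Co reads were maternal, 22 of 22, 22 of 22, 37 of 37 and 54 of 54, where the shallowest of these counts allows a paternal share of up to 13.6%. The Co deviation was 7.68 ± 1.23 (edgeR adjusted p = 0.000227), a size that depends on the prior count since no paternal read was seen. Cg pair 1 gave the same gene 625 of 638 (98.0%, 96.5 to 98.8) and 935 of 951 maternal reads (98.3%, 97.3 to 99.0), and 13 and 14 SNPs in 4 exons all lay above the dosage. Cg pair 2 gave 30 of 37 (81.1%, 65.8 to 90.5) and 37 of 66 (56.1%, 44.1 to 67.4). The Cg fit therefore did not call it (deviation 2.68 ± 1.17, adjusted p = 0.865). It was the only long gene past the maternal limit in 3 tables.

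A second, smaller maternal deviation was steady across SNPs. The gene at 2575991 to 2583020 on scaffold 8 (minus strand, 7029 bp) had 78.4% of 589 reads, 75.4% of 317, 82.2% of 1075 and 80.9% of 1009 in the Co directions. Its 4 SNPs, in 3 exons, were all above the dosage in every direction, and the deviation was 0.95 ± 0.16 (edgeR adjusted p = 0.00043). It was near these values in Cg pair 1, with 75.5% of 1250 and 72.0% of 1038 reads, but in Cg pair 2 it had 2.19% of 137 reads in direction 1 and 90.6% of 127 in direction 2.

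The gene at 15310118 to 15316409 on scaffold 6 (plus strand, 6291 bp) had 85.3% of 68 reads, 88.0% of 25, 87.8% of 196 and 84.7% of 216 in Co, with a deviation of 1.67 ± 0.38 (edgeR adjusted p = 0.0066). All of this came from 1 SNP that also lies inside another listed gene interval, so the gene behind these reads is uncertain. Its shares in Cg pair 2, where 3 and 4 SNPs had 10 or more reads, were 65.2% of 66 reads and 73.8% of 122.

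Apart from the scaffold 7 gene at 11097355, 2 paternal genes kept to 1 side in Co. On scaffold 6, the gene at 6574262 to 6579496 (plus strand, 5234 bp) had 18.8% of 80 reads, 34.0% of 53, 50.6% of 243 and 51.0% of 157 (deviation -1.60 ± 0.32, edgeR adjusted p = 0.0020). It was lower in pair 1 than in pair 2, and in Cg pair 2 it had 27.7% and 30.8% of 65 reads each. At 8468869 to 8475805 on scaffold 4 (minus strand, 6936 bp) the shares were 50.1% of 425 reads, 59.8% of 381, 54.1% of 901 and 66.2% of 1093 (deviation -0.55 ± 0.15, adjusted p = 0.0275). Its 4 SNPs did not share a side: over the directions they ran between 5.26% and 94.7% maternal, so the gene's sum averages SNPs that disagree, and its highest share lies just under the 66.7% dosage.

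The other 3 called Co genes did not keep to 1 side of the dosage. The gene at 12065572 to 12072252 on scaffold 1 (plus strand, 6680 bp), had 54.9% of 628 reads and 64.2% of 1236 in direction 1 of the pairs and 95.3% of 257 and 97.4% of 1180 in direction 2 (deviation 1.72 ± 0.19, edgeR adjusted p = 1.53e-06). With 1 direction left out its deviation ran between 0.81 and 2.43 and the edgeR adjusted p between 0.165 and 0.995. It was among the 5 most-read long genes of those that passed in all 4 tables. Both directions of Cg pair 1 were maternal, 95.9% of 7116 reads (95.4 to 96.3) and 95.3% of 5269 (94.7 to 95.8), with all 6 SNPs in 4 exons above the dosage. Cg pair 2 gave 33.9% of 339 reads and 97.1% of 243.

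The other 2 had negative deviations. At 439288 to 445158 on scaffold 7 (plus strand, 5870 bp), direction 1 of the Co pairs gave 85.1% of 74 and 84.6% of 78 reads, and direction 2 gave 10.6% of 47 and 6.86% of 175 (deviation -1.48 ± 0.39, edgeR adjusted p = 0.0187). All of these reads came from 1 SNP, and with 1 direction left out the deviation ran between -2.62 and -0.34. In Cg the same gene was above the dosage in all 4 directions, with 96.8% of 312, 81.9% of 320, 90% of 100 and 83.7% of 196 reads, but was not called there (deviation 2.16 ± 0.39, edgeR adjusted p = 0.0710). The gene s2:13285651-13291142(plus), of 5491 bp, had 38.4%, 69.1%, 43.6% and 55.3% in the Co directions, above the dosage in direction 2 of Co pair 1 alone, and a deviation of -0.91 ± 0.26 (adjusted p = 0.0289).

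Some long genes were extreme in Cg pair 1 but had few reads or mixed shares elsewhere. At 9666752 to 9672160 on scaffold 3 (5408 bp), Cg pair 1 gave 443 of 444 and 42 of 42 maternal reads, whereas Cg pair 2 gave 5 of 10 and 15 of 24. The gene at 308496 to 314147 on scaffold 2 (5651 bp) had 79 of 82 and 66 of 67 maternal reads in Cg pair 1, and 35 of 40 and 18 of 44 in Cg pair 2. On the paternal side, the gene at 891946 to 897110 on scaffold 1 (5164 bp) had 2 of 148 and 1 of 44 maternal reads in Cg pair 1. It had no exonic SNP in Cg pair 2, and in Co it had 0 of 8 maternal reads in direction 1 of pair 1, 0 of 4 in direction 1 of pair 2 and 1 of 1 in direction 2 of pair 2. In Cg pair 2 the scaffold 2 gene was thus past 85% maternal in direction 1 but below the dosage in direction 2, and the scaffold 3 gene was below the dosage in both with few reads. Among the 527 Cg long genes present in both pairs, the paternal limit was met by 17 in pair 1 and 24 in pair 2. Of these, 9 met it in both, which is 52.9% of the first list and 37.5% of the second. This overlap was counted in long genes only, so it shows nothing particular to them. Parental log2 deviations of the 2 Cg pairs had Pearson r = 0.44 in long genes and 0.42 in genes of 1000 to 5000 bp.

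**Figure D3:**
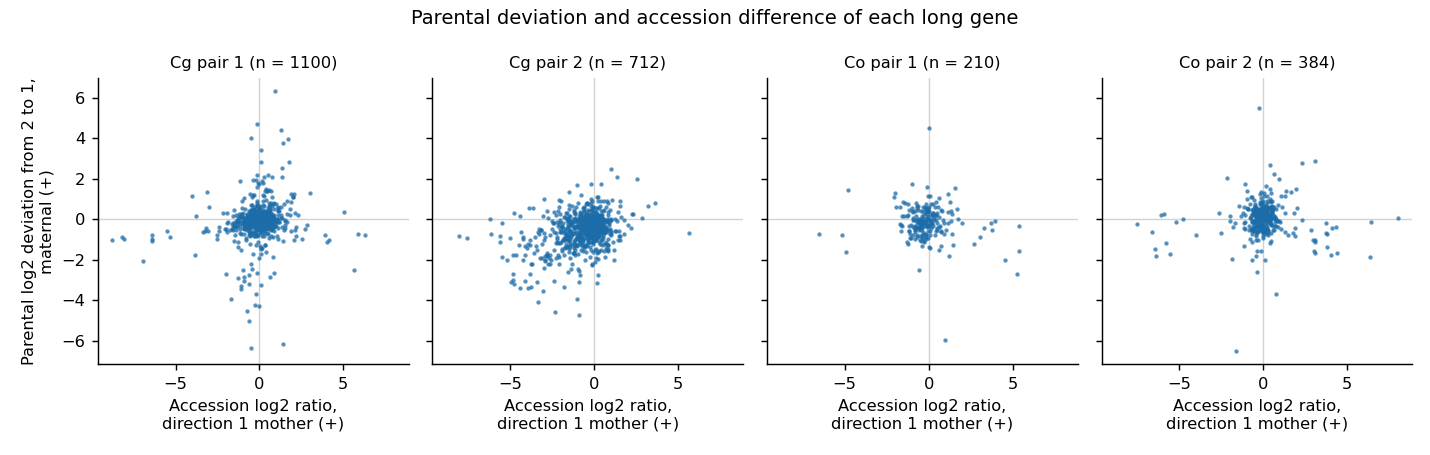
Parental deviation (log2, vertical axis) against accession difference (log2, horizontal axis) of each long gene with 20 or more reads in both directions, 1 panel per table. In Cg pair 1 the points gather around 0 on both axes, whereas in Cg pair 2 many lie to the left and below, with a median parental deviation of -0.48.

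The accession difference was measured as the log2 deviation of direction 1 minus the mean over both directions, so that it is 0 when both directions agree and positive when the allele of direction 1's mother is the stronger one. Its median absolute size in long genes was 0.29 in Cg pair 1, 0.67 in Cg pair 2, 0.54 in Co pair 1 and 0.38 in Co pair 2, against 0.40, 0.68, 0.51 and 0.43 in genes of 1000 to 5000 bp. Long genes were lower in 3 of 4 tables, by a mean of -0.035 (SD 0.061, n = 4, exact two-sided sign-flip permutation p = 0.375, in a design too small to reach 0.05). Among long genes of Cg pair 1 the median was lower in longer classes, at 0.32 for genes up to 6000 bp, 0.27 up to 8000 bp, 0.24 up to 12000 bp and 0.17 above 12000 bp. Co pair 1 had the same order, at 0.58, 0.53, 0.47 and 0.44. Co pair 2 had 0.42, 0.36, 0.38 and 0.24, and Cg pair 2 had no such order, at 0.70, 0.61, 0.71 and 0.85 for the same classes. The longest class holds 33 genes in Cg pair 1, 35 in Cg pair 2, 13 in Co pair 1 and 22 in Co pair 2, and no test was run. Median reads in these classes of Cg pair 1 were 386, 385, 449 and 527 in direction 1 and 385, 341, 384 and 373 in direction 2. In Co pair 2 they were 63, 66, 95 and 95 in direction 1. The part of read number in the order of the classes was not tested.

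Long genes with 1 accession dominant, at 90% or more maternal reads in 1 direction and 20% or less in the other, numbered 24 in Cg pair 1 (3.12% of all genes), 39 in Cg pair 2 (6.18% of all genes), 13 in Co pair 1 (6.82% of all genes) and 24 in Co pair 2 (8.23% of all genes). These were 2.18%, 5.48%, 6.19% and 6.25% of the long genes that passed, against 2.89%, 6.11%, 6.47% and 8.41% of genes of 1000 to 5000 bp. The side was uneven in Cg pair 2, where 38 of the 39 favoured the accession that mothered direction 2, against 15 of 24 in Cg pair 1. In the Co pairs 4 of 13 and 11 of 24 did so. The labels and files do not say how the SNPs of a pair were called. The part of SNP calling in the one-sided counts and the low direction 1 shares of Cg pair 2 was not tested. Nor was its part in the Cg calls, whose fits include this pair.

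Overlap of this limit between the pairs of a species was counted in long genes only, so it shows nothing particular to them. The Co pairs share their accessions. Of the 210 Co long genes in both tables, 13 met this limit in pair 1 and 10 in pair 2. All 10 of pair 2 were also among the 13, each with its high maternal share in the direction of the same number. The labels do not say whether directions of the same number had mothers of the same accession. The shared genes are 76.9% of the list of pair 1 and 100% of the list of pair 2. Between the Cg pairs, which involve different accessions, 13 and 27 of 527 genes met it, with 2 in both, or 15.4% and 7.41%. Across long genes the accession log2 values of the Co pairs had Pearson r = 0.82 and Spearman rho = 0.35 (n = 210 genes), and those of the Cg pairs r = 0.10 and rho = 0.03 (n = 527 genes). In genes of 1000 to 5000 bp they were r = 0.87 and rho = 0.58 in Co (n = 942 genes), and r = 0.06 and rho = 0.05 in Cg (n = 3027 genes). Genes are not independent replicates and SNPs are shared between tables, so no p is given.

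The edgeR accession term called 6 of 527 long genes in Cg pair 1 (0.73% of all genes were called) and 30 in Cg pair 2 (7.06% of all genes). Of these 30, 29 favoured the accession that mothered direction 2, where 6.92% of all genes were called on that side. It called 21 of 210 in Co pair 1 (15.9% of all genes) and 20 in Co pair 2 (14.2% of all genes). As shares of long genes the Co counts are 10.0% and 9.52%, against 16.5% and 14.8% of genes of 1000 to 5000 bp. The counts moved with single directions, as no long gene was called in Cg pair 1 without either direction of pair 2 (27 and 17 at an unadjusted p under 0.05).

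In some genes all reads of Cg pair 1 came from 1 accession. At 10074532 to 10080701 on scaffold 5 (6169 bp), Cg pair 1 gave 0 of 228 maternal reads in direction 1, which allows up to 1.32%, and 212 of 212 in direction 2. Cg pair 2 gave the same gene 54.5% of 88 and 68.3% of 240 reads. At 9808273 to 9814218 on scaffold 7 (5945 bp) Cg pair 1 gave 0 of 136 and 160 of 160. In each, 1 exonic SNP had 10 or more reads, and that of the scaffold 5 gene also lies in another listed interval. All reads of direction 1 came from the father and all reads of direction 2 from the mother, which is the same accession's allele both times.

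In Co the direction with the high maternal share had the same number in both pairs. Each of the 3 genes shown had 1 SNP with 10 or more reads there. At 17337202 to 17344929 on scaffold 1 (plus strand, 7727 bp), maternal reads were 1 of 114 and 55 of 55 in Co pair 1 and 2 of 195 and 187 of 188 in Co pair 2, while Cg pair 1 gave 62.9% of 1283 and 70.0% of 1258 reads. At 7312176 to 7319307 on scaffold 6 (minus strand, 7131 bp) they were 1 of 69 and 49 of 51, and 1 of 162 and 155 of 155. The gene at 1182723 to 1189559 on scaffold 6 (plus strand, 6836 bp) ran the other way in Co, with 138 of 149 and 0 of 62 in pair 1 and 274 of 274 and 2 of 317 in pair 2. It was also the only long gene past this limit in 3 tables, since Cg pair 2 gave 0 of 89 and 97 of 97.

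Agreement of SNPs along a gene was assessed in genes with 3 or more exonic SNPs of 10 or more reads. In long genes these SNPs spanned a median of 4404 bp in direction 1 of Cg pair 1, against 1267 bp in genes of 1000 to 5000 bp, and between 3253 and 4435.5 bp over all 8 directions. The standard deviation (SD) of the maternal share across the SNPs of a gene had a median of 8.99 and 9.61 percentage points for long genes in Cg pair 1, against 8.34 and 8.74. The SD in Cg pair 2 was 16.7 and 23.2, against 16.6 and 21.8. For Co pair 1 it was 25.3 and 16.8, against 25.3 and 11.2, and in Co pair 2 it was 12.6 and 11.5, against 11.8 and 11.1.

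SNPs of long genes thus varied more in 8 of 8 directions, by a mean of 1.22 percentage points (SD 1.82, n = 8). The exact two-sided sign-flip permutation p was 0.0078, the smallest possible, and 0.0547 after adjustment over the 7 measures, so the difference misses the threshold. This test takes the 8 directions as separate units, although directions of a pair share SNPs and accessions. Over the 4 table means long genes were higher in all 4, in a design too small to reach 0.05. Direction 2 of Co pair 1, with 37 long genes, gave the widest gap, and without it the mean difference was 0.59. Counting error moves the same way, with an SD expected from read numbers alone of 5.56 percentage points for long genes and 5.34 for genes of 1000 to 5000 bp in direction 1 of Cg pair 1. As a ratio to the expected SD, the difference between the classes was -0.018 (exact permutation p = 0.695), with 4 of 8 directions on either side. In both classes the observed SD was above the expected one, 1.64 times for long genes and 1.61 times for the others in direction 1 of Cg pair 1.

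The share of SNPs on the same side of the dosage as their whole gene was lower in long genes in 7 of 8 directions. Each SNP is itself part of the gene's sum, which raises this share in both classes. The share was 72.7% and 72.1% of SNPs for long genes in Cg pair 1, against 77.9% and 76.7%. For Cg pair 2 it was 75.6% and 69.4%, against 75.4% and 70.8%. For Co pair 1 it was 68.2% and 62.1%, against 68.3% and 79.7%, and in Co pair 2 it was 66.7% and 68.7%, against 73.6% and 74.7%. The mean difference was -5.17 percentage points (SD 5.68, n = 8, exact permutation p = 0.0234, adjusted p = 0.0820), and -3.41 without direction 2 of Co pair 1. A gene near the dosage can have SNPs on both sides by counting error alone, and the median absolute parental deviation in Cg pair 1 was 0.16 for long genes, against 0.21 (log2).

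**Figure D4:**
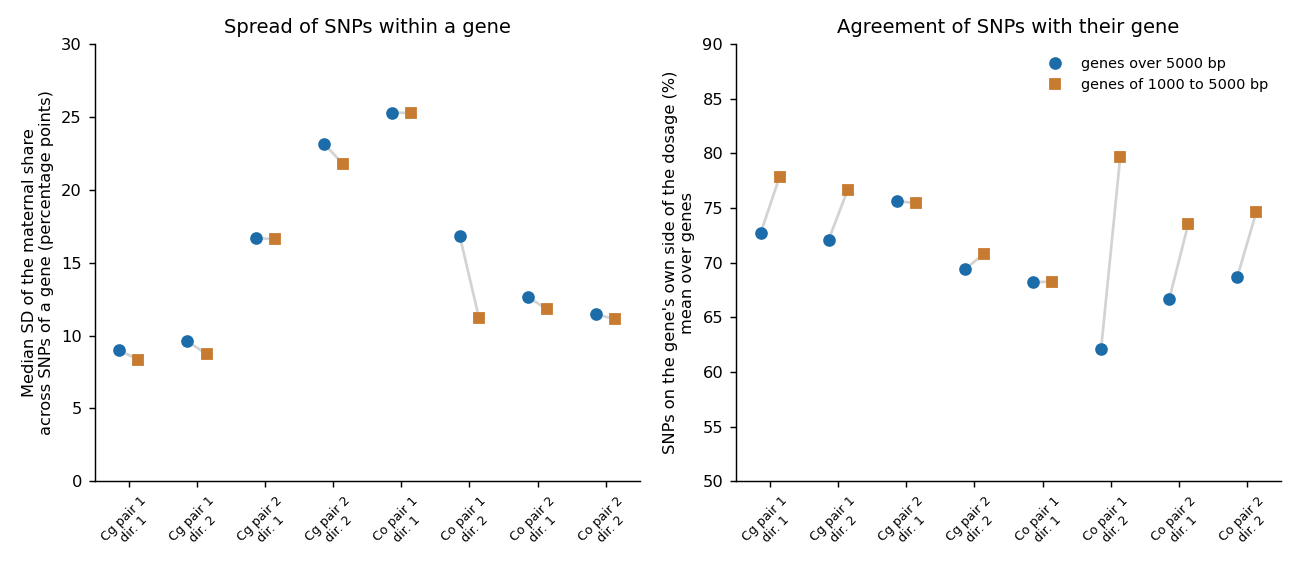
Left, median SD of the maternal share across the exonic SNPs of a gene (percentage points), and right, mean share of SNPs on the side of the dosage of their gene (percent, axis starting at 50), in each of the 8 directions for long genes and genes of 1000 to 5000 bp. The widest gap in both panels is in direction 2 of Co pair 1, with an SD of 16.8 for long genes against 11.2.

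Genes that held SNPs below 20% and SNPs above 95% maternal in the same direction were concentrated in 2 directions. They were 21.3% of long genes in direction 2 of Cg pair 2, against 14.9% of genes of 1000 to 5000 bp, and 20.3% in direction 1 of Co pair 1, against 26.9%. In the other 6 directions they were between 1.22% and 6.02% of long genes. In these same 2 directions many SNPs were listed with no value in the opposite direction, 201 exonic SNPs of 10 or more reads in long genes in direction 2 of Cg pair 2 and 150 in direction 1 of Co pair 1. Among the 201, 22.4% lay below 5% maternal and 27.9% above 95%, and among the 150, 26.7% and 32.0%. With SNPs listed in both directions only, the difference in SD between the classes was 1.21, as large as with all of them.

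The 5′ and 3′ sides of long genes, split at the midpoint of the interval, agreed about as well as those of genes of 1000 to 5000 bp. Among genes with 20 or more reads on each side, the median absolute difference of the maternal share was 6.63 and 6.54 percentage points in Cg pair 1 for long genes, against 7.20 and 7.63. For Cg pair 2 it was 13.6 and 13.7, against 15.7 and 15.4. For Co pair 1 it was 15.4 and 12.7, against 15.4 and 9.18, and in Co pair 2 it was 11.7 and 9.21, against 10.5 and 10.2. The mean difference was -0.22 (SD 1.82, n = 8, exact permutation p = 0.750). Counting error alone would give a median difference of 3.39 for long genes in direction 1 of Cg pair 1, against 3.61.

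Reads lay toward the 3′ side in both classes. A mean of 58.3% of a long gene's exonic reads came from the 3′ side, against 60.5% in genes of 1000 to 5000 bp, a difference of -2.23 (SD 2.71, n = 8, exact permutation p = 0.0703, adjusted p = 0.123). Long genes were higher only in the 2 directions of Cg pair 1. The SNPs themselves showed the same order, 55.5% on the 3′ side in long genes against 58.6%, with long genes higher in the same 2 directions (exact permutation p = 0.0312, a measure added after the data were seen).

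In some long genes the sides differed. The widest gap in Cg pair 1 was at 7156213 to 7164488 on scaffold 2 (minus strand, 8275 bp). Its 5′ side had 38.5% maternal of 39 reads in direction 1 and 81.8% of 22 in direction 2, while its 3′ side had 99.8% of 422 and 0.76% of 394. The 3′ side therefore carried a complete accession difference that the 5′ side did not share, and there it leaned to the other accession. All 3′ reads came from 1 SNP. At 11490963 to 11498859 on scaffold 4 (minus strand, 7896 bp), the 5′ side of Cg pair 1 had 67.0% of 97 and 53.4% of 73 reads and the 3′ side 0.57% of 527 and 99.3% of 457, with 1 SNP on each side, 1 of them inside another listed interval.

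The gaps of Cg pair 2 were widest at 7513629 to 7519993 on scaffold 8 (6364 bp) and at 12935400 to 12941668 on scaffold 6 (6268 bp). The scaffold 8 gene had 3.33% of 30 and 97.4% of 38 reads on the 5′ side, and 76.7% of 30 and 55.3% of 76 on the 3′ side. The scaffold 6 gene had 16.5% of 91 and 81.2% of 85 on the 5′ side, and 81.8% of 33 and 40.2% of 87 on the 3′ side. In Cg pair 1, with far more reads, the sides of the scaffold 6 gene were 64.3% and 66.5% at 5′ and 66.3% and 65.1% at 3′. Of the Cg pairs, the sides of this gene disagreed in pair 2 alone.

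In Co a gap recurred in both pairs. The gene at 12065572 on scaffold 1, described above, had 1.30% of 230 and 98.8% of 81 reads on the 5′ side in Co pair 1, and 85.9% of 398 and 93.8% of 176 on the 3′ side. In Co pair 2 it had 0.76% of 395 and 99.8% of 422 on the 5′ side, and 94.1% of 841 and 96.0% of 758 on the 3′ side. Most 5′ reads came from 1 SNP, which had 0.53% and 98.8% maternal in Co pair 1 and 0.25% and 99.8% in Co pair 2, low in direction 1 and high in direction 2. On the 3′ side the SNP with most reads was above the dosage in every Co direction, whereas the other had 54.3% of 46 reads in direction 1 of Co pair 1 and 51.2% of 82 in direction 1 of Co pair 2, both below it. The gene at 16563543 to 16570236 on scaffold 1 (minus strand, 6693 bp) rested on 2 SNPs in Co. Its 3′ side was high in direction 1 and low in direction 2, with 84.8% and 8.45% in Co pair 1 and 92.5% and 17.4% in Co pair 2, while its 5′ side was the lower one in direction 1, with 50% and 78.9% in Co pair 1 and 50% and 80.0% in Co pair 2.

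**Figure D5:**
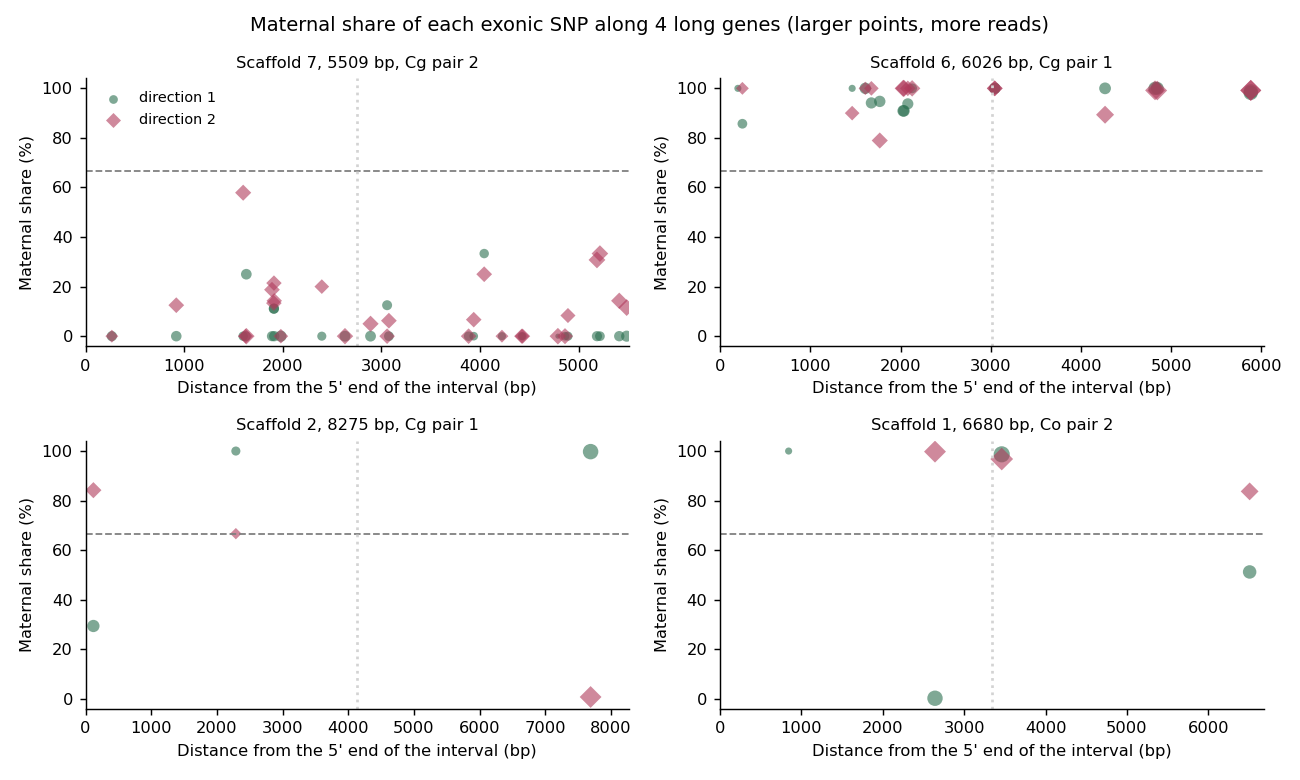
Maternal share at each exonic SNP (percent, vertical axis) against its distance from the 5′ end of the interval (bp, horizontal axis) in 4 long genes, with direction 1 as circles, direction 2 as diamonds, larger symbols for more reads, a dashed line at the 66.7% dosage and a dotted line at the midpoint. In the scaffold 7 gene of 5509 bp all SNPs of Cg pair 2 lie below the dosage and in the scaffold 6 gene of 6026 bp all SNPs of Cg pair 1 lie above it, whereas in the scaffold 1 gene of 6680 bp the SNPs with 10 or more reads in Co pair 2 direction 1 run between 0.25% and 98.7%.

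Of the longest genes, 2 lay near the dosage in Cg pair 1. The longest, 30788 bp at 7855639 to 7886427 on scaffold 5 (plus strand), had 62.3% of 2438 and 67.8% of 2221 reads in Cg pair 1, and all of its exonic SNPs lay on the 3′ side. Its shares were 79.3% and 64.7% in Cg pair 2, 70.0% and 38.1% in Co pair 1, and 44.3% and 79.3% in Co pair 2, where reads numbered 21 to 121. The gene at 8378096 to 8403686 on scaffold 2 (minus strand, 25590 bp) gives the longest view of 1 transcript. In direction 1 of Cg pair 1, 62 SNPs in 30 exons had 10 or more reads and ran between 36.4% and 100% with a median of 71.0%. The sides of the gene agreed there at 70.7% (5′) and 70.8% (3′). In direction 2 the sides were 66.2% (5′) and 61.9% (3′), and 36 SNPs ran between 40% and 90.9%, with 16 below the dosage. Cg pair 2 gave the same gene 1 of 41 and 44 of 46 maternal reads.

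Among long genes measured in all 4 tables, the most-read one, at 6030567 to 6038719 on scaffold 4 (8152 bp), stayed between 55.1% and 69.7% in all 8 directions. Its shares were 66.1% of 10004 and 69.2% of 10287 reads in Cg pair 1, 62.3% and 55.1% in Cg pair 2, 68.3% and 63.6% in Co pair 1 and 69.7% and 55.4% in Co pair 2. The gene at 732022 to 737467 on scaffold 8 (5445 bp) ran between 55.0% and 78.1%. At 6670470 to 6675518 on scaffold 8 (5048 bp) the shares were 70.8% of 6075 and 64.0% of 5565 reads in Cg pair 1, but 38.9% of 72 and 81.5% of 81 in Cg pair 2. At 10973099 to 10978807 on scaffold 7 (5708 bp) they ran between 54.9% and 82.3%. With the gene at 12065572 on scaffold 1, these are the 5 most-read long genes that passed in every table.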

How the data were processed

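Maternal and paternal read counts at SNPs were deposited by the authors as 4 tables, 2 per species, as whole-number counts per SNP and cross direction, per the file headers; they are not normalized. Trimmomatic, Bismark and Bowtie2 are named in the submitters' processing notes without versions or roles, and no RNA aligner, SNP caller or build is named (not given in the sources used here). Of each file, 24 columns that no label ties to a sample were not used. A SNP with no value in a direction was treated as not listed there.

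Exonic SNP counts were summed per gene interval, and genes with 20 or more reads in both directions of a table were kept. Log2 deviations used a pseudocount of 0.5. Counts per gene were fitted with edgeR 4.0.16 in R 4.3.3 (quasi-likelihood test), with DESeq2 1.42.0 as an alternative. The edgeR fit took both alleles of a direction as a block, with an offset of 2 maternal genomes to 1 paternal. Benjamini-Hochberg adjustment was over all genes fitted, with a threshold of 0.05. The block comes from the design, since both alleles of a direction are counted in the same endosperm. How many libraries a direction sums is not known. Other measures used Python 3.11.15 with numpy 2.4.6, pandas 2.3.3, scipy 1.17.1 and statsmodels 0.14.6, and exact sign-flip tests over directions or tables. The fits were tested on simulated data. Intervals are Wilson 95% intervals, and a count of 0 is given an upper limit of 3 counts.

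Genes named are, per species, called long genes on 1 side of the dosage (up to 8 per side), and per table the 3 most deviating on each side, the 3 with the largest accession difference and the 2 with the widest difference between 5′ and 3′ sides, with the longest and most-read long genes. The other called long genes, the pair next to the length limit on each side and genes past a limit in several tables were named after their values were seen. Members and lists were chosen with earlier results of these data known. Alternatives were other scalings, read minimums, SNP choices, length limits and single directions left out.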

Additional observations from a re-analysis of the deposited data

Results flagged for a closer look

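Of 38 sets of 4 to 8 values, 5 held a direction far from the others by Dixon's criterion, which chance gives in about 1 of 20 sets, and several of these sets share reads. The median maternal share of long genes was 52.1% in direction 1 of Cg pair 2, against 66.5% to 67.2% in the other 3 Cg directions, and the summed share there was 52.9%. The median was 60.7% in direction 1 of Co pair 1, against 68.4% to 69.2% in the other 3 Co directions. In direction 2 of Co pair 1, the least deep with 208132 allele counts, the SD among SNPs of long genes exceeded that of genes of 1000 to 5000 bp by 5.59 percentage points. In the same direction the share of SNPs on their gene's side was lower in long genes by a difference of -17.5. This direction has 37 long genes with enough SNPs.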

How the results depend on the processing

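Calls among long genes depended on scaling, depth and single directions, and the cause was not tested. For parental bias in Cg (10 calls) there were 16 with TMM, 18 with DESeq2, 4 with 50 or more reads, 20 with a null at the median log ratio, 3 over 7000 bp and 0 to 5 with 1 direction left out. In Co (9 calls) there were 3 with DESeq2, 5 with 50 or more reads, 17 with all SNPs, 14 over 4000 bp, 1 over 7000 bp and 0 to 3 with 1 direction left out. For accession, Cg pair 1 (6 calls) gave 15 with TMM, 16 with DESeq2, 3 with 50 or more reads, 24 with all SNPs, 12 with SNPs listed in both directions and 0 with either direction of pair 2 left out. Cg pair 2 (30 calls) gave 68 with DESeq2, 12 with 50 or more reads, 50 with SNPs listed in both directions and 38 to 48 with a direction left out. Co pair 1 (21 calls) gave 11 and Co pair 2 (20 calls) 8 with 50 or more reads, 38 and 32 with all SNPs, and 0 to 6 and 0 to 1 with a direction left out (15 and 16 at an unadjusted edgeR p under 0.05 at the counts of 0). The replicate block joins both alleles of a direction. Without it, edgeR called 0 long genes for parental bias in Cg (10 at an unadjusted p under 0.05, and 18 calls by DESeq2 with the block) and 2 in Co. For accession, edgeR without the block called 0 in Cg pair 1 and in Cg pair 2 (5 and 43 at an unadjusted p under 0.05). The sign of each of the 10 Cg and 9 Co deviations was kept in every fit that held the gene.

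Between the classes, the difference in maternal share was -1.20 with all SNPs (exact permutation p = 0.0156), -0.90 with SNPs listed in both directions (p = 0.0469) and -1.21 to -0.56 with 1 direction left out. The difference in SD among SNPs was 0.90 with 10 or more reads, 0.82 over 7000 bp, 5.59 in genes of 20 to 100 reads, 0.58 with SNPs 200 bp or more apart, -0.018 as a ratio to the counting SD and 0.59 to 1.39 with 1 direction left out. The difference in SNPs on the gene's side was -7.73 in genes of 20 to 100 reads, -3.93 with SNPs 200 bp or more apart and -5.94 to -3.41 with 1 direction left out. The difference between 5′ and 3′ sides was 0.20 over 4000 bp, 0.18 over 7000 bp and -0.75 to 0.050 with 1 direction left out (0.050 without direction 1 of Cg pair 2). The accession difference kept its direction in all 14 alternatives, between -0.056 and -0.0085 with 1 table left out. Depth per exonic SNP of passing long genes was lowest in Cg pair 2, at medians of 9.73 and 12.7 reads in its directions, against 20.1 to 43 in Co.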

Other observations

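Across long genes, the parental log2 deviations of the 2 pairs of a species had Pearson r = 0.44 and Spearman rho = 0.22 in Cg (n = 527 genes) and r = 0.59 and rho = 0.22 in Co (n = 210 genes). For genes of 1000 to 5000 bp, Cg gave r = 0.42 with rho = 0.21, and Co gave r = 0.61 with rho = 0.34. The accession log2 values of the Co pairs had r = 0.82 and rho = 0.35 in long genes, against 0.87 and 0.58. These are descriptions across genes that share libraries, and no p is given.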
